A study of Oryza sativa Japonica Group with 17 samples.

Results

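The regions described here are rice genomic regions that carried an i-motif (iM) peak in CK DNA and in demethylated DNA and no such peak in hypermethylated DNA. They were selected on the deposited peak lists of 5 conditions. A common peak was a peak called against input that overlapped, by at least 1 bp, a peak of the same condition called against IgG. The common peaks of the 5 conditions were joined into 113086 regions wherever they overlapped, of which 49301 held a CK peak. Of these, 1853 regions also had a common peak in at least 1 demethylated condition and none in either hypermethylated condition, and they are called member regions below. They made up 3.76% of the CK regions (95% Wilson interval 3.59% to 3.93%), and 1.64% of all regions. Because the peak lists chose the regions, peak presence and the scores below are descriptions and were not tested.

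An iM is a folded structure of a C-rich DNA strand, held together by pairs between a protonated and an unprotonated cytosine. The proton makes the fold easier to form in acid, and a methyl group on cytosine is known to alter its stability in a way that depends on the sequence and on how many cytosines are methylated. The antibody fragment iMab recognises the fold, and iM-IP-seq sequences the DNA that iMab pulls down. In plants cytosine is methylated in CG and also in CHG and CHH contexts, where H is any base but G.

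The study asked how DNA methylation and pH affect iM formation in Nipponbare rice seedlings. CK was genomic DNA whose methylation had not been altered, immunoprecipitated at pH 7.0. Hypermethylated DNA was purified DNA treated in a tube with M.CviPI, an enzyme that methylates the C of GpC (the labels describe it as a CpG enzyme), and demethylated DNA was extracted from seedlings that had received zebularine, a DNA methyltransferase inhibitor, at 80 µM in DMSO. Both were immunoprecipitated at pH 7.0 and at pH 5.5. All DNA was sheared, denatured and refolded before it met the antibody, so the peaks record what fragments formed in buffer and not what was folded in cells. Zebularine was given for 5 days to seedlings 5 days old, whereas the general growth protocol names 2-week-old seedlings. Whether CK came from the latter or from DMSO-treated seedlings is not stated for each library, so for demethylated DNA an effect of age cannot be told apart from one of methylation. Neither CK libraries at pH 5.5 nor a CK input library were analysed here as samples, and regions kept at pH 5.5 are therefore set against CK at pH 7.0.

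The 17 libraries comprised 10 iMab IPs, 5 IgG controls and 2 inputs. The 2 IP libraries of a condition had been merged before peak calling, so no value has a replicate error, and all intervals cover counting error only. Each peak carried a fold enrichment, which is the IP pileup at the summit over the local control level, and a −log10 q-value. Read totals were not given, and the coverage was solved from the fold and the p-value. The lowest control level of a list, which equals the mean IP coverage after scaling to the control, was 6.005 fragments in the input-called CK list. For that list the CK IP had been scaled down to 0.489 of its reads, from a full coverage of 12.3 fragments. The other input-called lists were not scaled down. Their level was 11.4 and 9.35 fragments in hypermethylated DNA at pH 7.0 and 5.5, and 14.4 and 7.99 fragments in demethylated DNA. Folds of different lists were scaled separately, and the coverage and smallest peak width of each list moved with the condition.

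Few member regions were kept at both pH in demethylated DNA, compared with CK regions in general. Both demethylated conditions had a common peak in 464 regions (25.04%, 23.1% to 27.1%), pH 7.0 alone in 676 (36.5%) and pH 5.5 alone in 713 (38.5%). Over all 46857 CK regions with a demethylated common peak, the shares were 71.2%, 22.2% and 6.55% in the same order. A low share at both pH was not limited to member regions. Of the 1529 CK regions with a hypermethylated and no demethylated common peak, 481 had the hypermethylated peak at both pH. The demethylated pH 7.0 set thus covered 1140 of the member regions and the pH 5.5 set 1177. In 242 of the 676 regions found at pH 7.0 alone (35.8%), demethylated DNA at pH 5.5 had a peak against input that was missing from the IgG-called list, as it had in 54.2% of all 10413 CK regions found at pH 7.0 alone among the demethylated conditions. That list had been made from an IP scaled down to 0.598 of its reads, with a coverage of 4.78. Of the 713 regions found at pH 5.5 alone, 124 (17.4%) had only an input-called peak at pH 7.0 and 94 (13.2%) only an IgG-called one, beside 32.1% and 15.0% of 3069 such CK regions. No peak of any kind was present in the other demethylated condition in 431 regions of the former class (63.8%, against 45.5% of such CK regions) and 494 of the latter (69.3%, against 52.8%).

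The opposite pattern was also found among CK regions, and the balance of the 2 depended on how peaks were taken. A total of 2768 CK regions (5.61%) lacked a common peak in both hypermethylated conditions, and 1853 of them met the rule while 915 were found in CK alone. The mirror regions, with a CK peak, a peak in at least 1 hypermethylated condition and none in either demethylated condition, numbered 1529 (3.10% of CK regions, 2.95% to 3.26%). There were more member than mirror regions by 0.28 on the log2 scale. The ratio was higher, at 0.99, with every input-called peak (1855 against 931 regions) and at 0.89 when no peak was allowed in any list of the treatment without the region (1010 against 544). The order of the 2 sets turned at a fold of at least 4 in every list, with a log2 ratio of -0.43. It also turned when a peak was required at both pH, with 464 member and 481 mirror regions and a log2 ratio of -0.05. In contrast, 30100 CK regions (61.1%) had a common peak in all 5 conditions.

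Member regions had narrow CK peaks. The median width of the CK peak was 199 bp in member regions, 202 bp in mirror regions, 191 bp in regions found in CK alone and 312 bp in regions present in all 5 conditions. The joined regions, whose width grows with the number of conditions that have a peak, had medians of 305, 270, 191 and 764 bp in the same order, and member regions spanned 168 to 1269 bp. The median CK fold over input in member regions was 3.25 (lowest 1.5995, 10th percentile 2.31, 90th percentile 4.68, highest 8.62), against 3.77 in the regions of all 5 conditions. The difference was larger in the score, with a median −log10 q of 5.92 in member regions, 10.5 over all CK regions and 13.6 in the regions of all 5 conditions. The CK summits held a median of 58 fragments, from 30 to 183. All CK fragments are counted before scaling, whereas the CK fold over input rests on the IP scaled down to 0.489 of its reads. Mirror regions resembled member regions in these CK values, with a median fold of 3.21 and a median −log10 q of 5.86.

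When CK regions were ordered by the score of their CK peak, in 10 bins of equal size, the share of member regions was lower in each successive bin. It was 8.80% (8.04% to 9.62%) in the lowest bin, 4.10% in the fifth and 0.142% (0.0688% to 0.293%, 7 regions) in the highest. The mirror share took a like course from 7.52% to 0.406%. In the fifth and the sixth bins the member share stood above the mirror share with intervals that did not overlap, as 4.10% (3.58% to 4.69%) against 2.88% (2.45% to 3.39%) and 3.35% (2.88% to 3.89%) against 2.03% (1.67% to 2.46%). In the other bins the intervals of the sets overlapped, and in the highest bin the mirror regions were the more frequent, with 20 regions against 7. The intervals cover counting error only, and the balance of the 2 sets turned with the peak setting. No conclusion is therefore drawn from single bins.

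**Figure D1:**
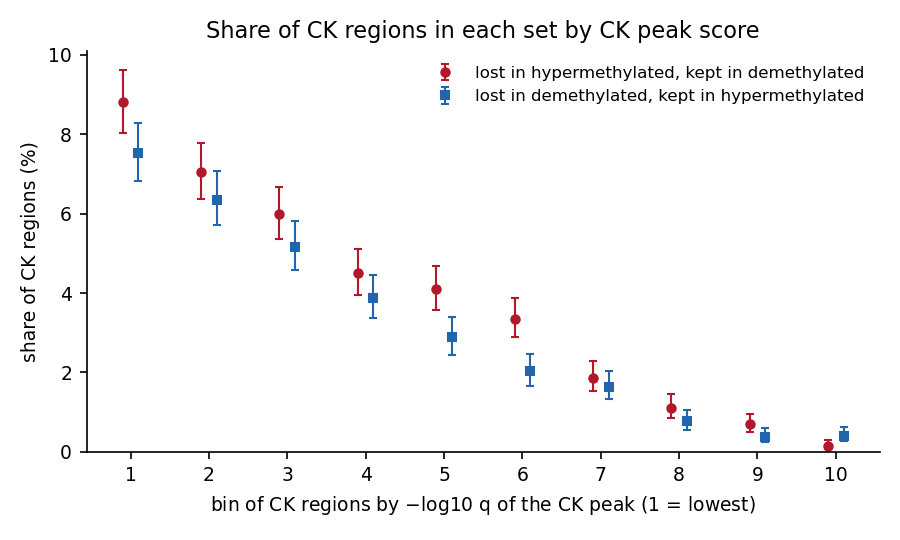
Share of CK regions (%, vertical axis) that were member regions (red circles) or mirror regions (blue squares), in 10 equal bins of CK regions ordered by the −log10 q of the CK peak. Bars are 95% Wilson intervals; the member share fell from 8.80% in the lowest bin to 0.142% in the highest.

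The peaks of demethylated DNA in the member regions were weak at pH 7.0 and closer to the usual at pH 5.5. At pH 7.0 the median fold over 1140 regions was 2.76, from 1.502 to 5.35, whereas all common peaks of that condition had a median of 3.67. In 90.6% of the regions the fold lay below that median, and 0 of the 1140 reached the fold of 6.97 where the top 10% of the list began. At pH 5.5 the median fold over 1177 regions was 4.62, from 1.65 to 11.7, beside 5.29 for all common peaks. There 65.1% of regions were below the median and 10 reached the top 10%. The classes by pH had similar folds over input. At pH 7.0 the median was 2.78 in regions kept at both pH and 2.73 in those kept at pH 7.0 alone, and at pH 5.5 it was 4.68 and 4.61 for both pH and pH 5.5 alone. CK folds over input were likewise close, with medians of 3.28, 3.19 and 3.28 for both pH, pH 7.0 alone and pH 5.5 alone. Over IgG, the regions kept at pH 7.0 alone had the lowest CK values. Their median fold over IgG was 3.52, beside 4.49 for both pH and 4.27 for pH 5.5 alone, and their CK summits held a median of 50.5 fragments, beside 63 and 61.

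**Figure D2:**
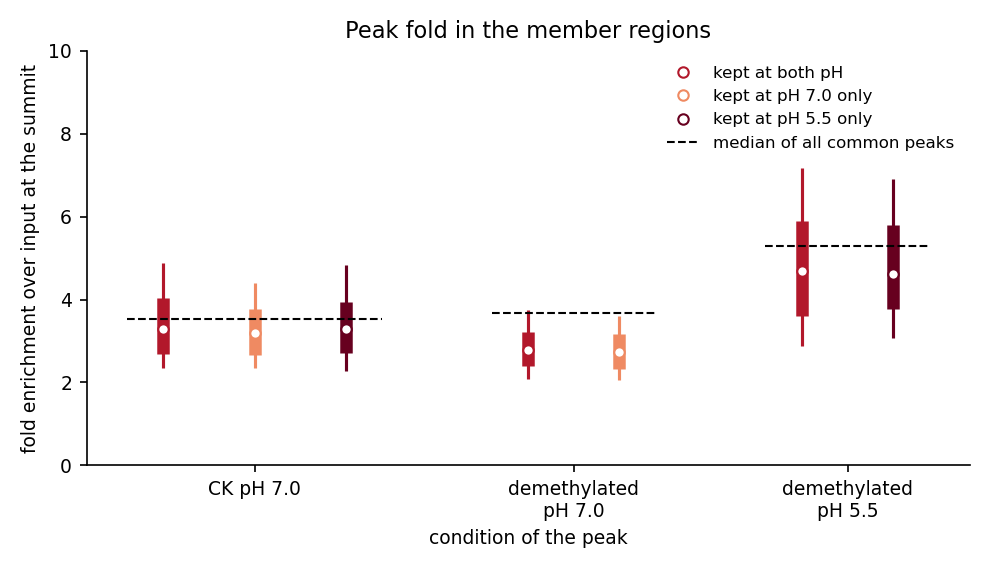
Fold enrichment over input of the CK and demethylated peaks in member regions, by the pH at which the region was kept in demethylated DNA. Circles are medians, thick bars run from the 25th to the 75th percentile and thin lines from the 10th to the 90th, and dashed lines mark the median of all common peaks of the condition (3.53 in CK, 3.67 and 5.29 in demethylated DNA at pH 7.0 and 5.5).

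In the 464 regions kept at both pH, the fold at pH 5.5 exceeded that at pH 7.0 in 439 (94.6%, 92.2% to 96.3%), with a median log2 ratio of 0.70. The same order held in 73.7% of the regions of all 5 conditions, with a median log2 ratio of 0.47. Relative to CK the order went the other way. Demethylated DNA at pH 7.0 had the higher fold in 139 of the 464 regions (30.0%, 26.0% to 34.3%; median log2 ratio -0.26), but in 73.8% of the regions of all 5 conditions (median log2 ratio 0.38). Since the lists were scaled separately, only the contrast between these sets within the same pair of lists is given, and the rule that formed the sets used the same peaks.

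The demethylated peaks lay on the CK peaks. The median distance between summits was 22 bp at pH 7.0 and 18 bp at pH 5.5, and 73.0% and 78.4% of the summits were within 50 bp of the CK summit. Peaks overlapped by at least 50% of the shorter peak in 98.7% and 97.7% of the regions, so few were joined by their edges. In regions of all 5 conditions with a single peak each the median summit distances were 19 bp and 27 bp.

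Not every member region was without a called peak in hypermethylated DNA. Only called peaks were available, so the absence of a peak does not show the absence of signal. No peak in any of the 4 hypermethylated lists, whether called against input or IgG, was found in 1010 member regions (54.5%, 52.2% to 56.8%). Over all 2768 CK regions without a hypermethylated common peak, the share was 58.4%. These 2768 include the 1853 member regions themselves, so the share in the 915 regions found in CK alone was higher than that. Among member regions the share was lowest in those kept at both pH, with 201 of 464 (43.3%, 38.9% to 47.9%), and higher in those kept at pH 7.0 alone (360 of 676, 53.3%) and at pH 5.5 alone (449 of 713, 63.0%, 59.4% to 66.4%). Peaks were counted over the joined region, whose median width was 355.5, 313.5 and 265 bp in the same order. The part of width in these shares was not tested. The other 843 member regions (45.5%) overlapped a peak in at least 1 of these lists but no common peak.

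In hypermethylated DNA at pH 7.0, 163 member regions had an input-called peak only and 279 an IgG-called peak only (8.80% and 15.1%). The corresponding shares of the 7077 CK regions without a common peak in that condition were 13.4% and 13.6%. At pH 5.5 the counts were 220 and 351 (11.9% and 18.9%), beside 18.9% and 15.6% of 5911 CK regions. The IgG-called kind was thus the more frequent in member regions at both pH. These single-control peaks were weak, with median folds of 2.74 and 2.82 at pH 7.0 and 3.002 and 2.97 at pH 5.5, against medians from 3.76 to 4.53 over all peaks of the 4 lists. The rule allowed no common peak in member regions, whereas the lists include the common peaks. Single-control peaks outside member regions were not measured, so the low folds are not read as a trait of member regions.

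The single-control peaks were also close to the smallest width that their list contained. The smallest peak was 199 bp in both hypermethylated pH 7.0 lists and 153 bp in both pH 5.5 lists. Of the single-control peaks in member regions, between 36.6% and 46.2% in the 4 lists were less than 20 bp wider than that, compared with 6.27% to 11.1% of all peaks in those lists. The same selection applies to these widths, so they are not read as a trait of member regions either. The input-called CK list began at 168 bp, the demethylated lists at 206 bp for pH 7.0 and 121 bp for pH 5.5. The CK peak was narrower than 199 bp in 918 member regions (49.5%) and 47.0% of mirror regions, but in 9.92% of the regions of all 5 conditions. This share was 39.4% in member regions kept at both pH, 43.9% at pH 7.0 alone and 61.4% at pH 5.5 alone. When peaks narrower than 206 bp were removed from all 10 lists, 1302 regions met the rule for members and 896 that for mirror regions. The part of the width limit in the loss of a region was not tested further.

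**Figure D3:**
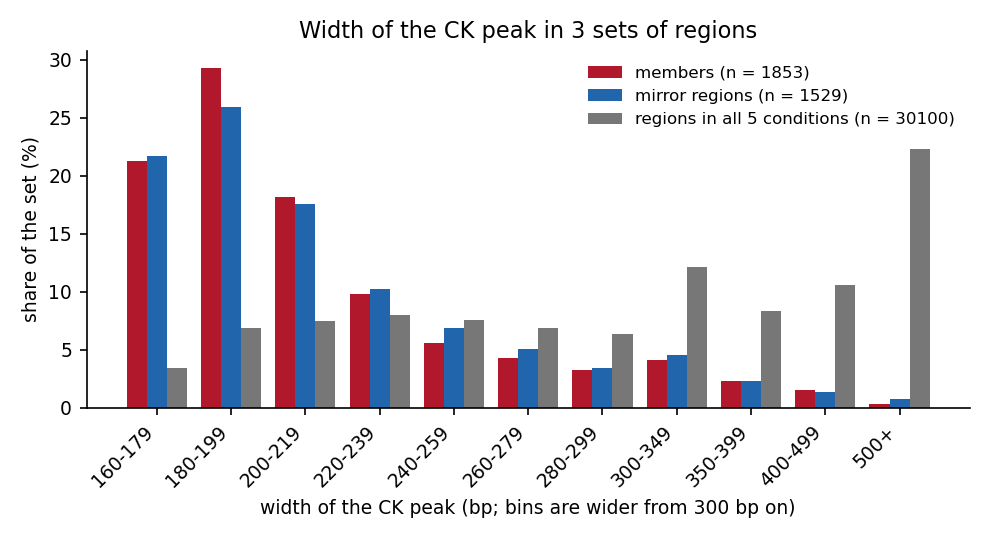
Width of the CK peak (bp, horizontal axis, bins wider from 300 bp on) against the share of the set (%), for 1853 member, 1529 mirror and 30100 regions present in all 5 conditions. The CK peaks of member and mirror regions gather near the smallest width of the CK list, 168 bp, and 49.5% of those in member regions were below 199 bp, the smallest width in the hypermethylated pH 7.0 lists.

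The lists also differed in the fold needed for a call at their mean coverage. At the mean coverage of a list, the lowest fold that passed its threshold was 1.77 in hypermethylated DNA at pH 7.0 and 1.84 at pH 5.5, compared with 2.14 in the input-called CK list, 1.68 in demethylated DNA at pH 7.0 and 1.89 at pH 5.5. Peaks with a higher local control level passed at lower folds, down to 1.5995 in the CK peaks of member regions. The part of these limits in the loss of a member region was not tested.

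Among regions kept at both pH and without any hypermethylated peak, the one with the highest minimum fold was Chr5:26722666-26722974 (309 bp; MSU v7.0 coordinates, 1-based). It had a fold of 5.60 in CK, 4.92 in demethylated DNA at pH 7.0 and 5.67 at pH 5.5. The summits held 104 fragments (exact Poisson interval 85.0 to 126), 75 (59.0 to 94.0) and 50 (37.1 to 65.9), respectively. The CK fragments are counted before scaling, so they are not in proportion to the CK fold. The nearest hypermethylated common peak was 877 bp away. It was the first of 6 regions named by their minimum fold over CK and both demethylated conditions.

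The second, Chr5:19211426-19211723, had folds of 5.33, 4.46 and 5.92 in CK, demethylated DNA at pH 7.0 and demethylated DNA at pH 5.5. Both demethylated summits lay 1 bp from the CK summit, and the nearest hypermethylated common peak was 522 bp away. Chr11:20607246-20608058 had folds of 6.29, 4.32 and 6.005 in the same order, and its 813 bp were those of the peak at demethylated pH 7.0, whereas the CK peak spanned 215 bp. At Chr11:1240617-1240846 the folds were 4.54, 4.31 and 4.37. At Chr2:1214387-1214680 they were 4.77, 4.20 and 7.98, with 72 fragments (56.3 to 90.7) at the pH 5.5 summit. The last, Chr11:12553702-12553991, had 5.31, 4.14 and 4.003. The lists were scaled separately, so differences between these folds within a region are not interpreted. The medians of all common peaks were 3.53 in CK, and 3.67 and 5.29 in demethylated DNA at pH 7.0 and 5.5.

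Among regions kept at pH 7.0 alone and without a hypermethylated peak, 3 were named by the same measure. Chr1:35345107-35345476 had a fold of 5.05 in CK and 4.73 in demethylated DNA at pH 7.0, with 77 and 72 fragments. At Chr11:28139234-28139500 the folds were 5.52 and 4.47, and at Chr11:2594826-2595099 they were 4.62 and 4.25. Their nearest hypermethylated common peaks were 2157, 2020 and 847 bp away. All 3 demethylated summits were 2 to 4 bp from the CK summit.

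Another 3 regions were named among those kept at pH 5.5 alone. Chr12:23946658-23946919 had the highest demethylated fold of the named regions, with a fold of 6.22 in CK and 9.82 in demethylated DNA at pH 5.5. The summits held 87 (69.7 to 107) and 93 (75.1 to 114) fragments, with those of CK counted before scaling. Its nearest hypermethylated common peak was 5035 bp away. Chr4:30167051-30167433 had 6.496 and 7.23, and Chr11:11229925-11230151 had 5.69 and 5.72. The CK peak of Chr4:30167051-30167433 was 199 bp wide.

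The 3 member regions with the highest CK scores all had some hypermethylated signal. The highest, Chr9:12302364-12302758, had a CK fold of 8.62, a −log10 q of 39.7 and 143 fragments before scaling (120.5 to 168). Its demethylated folds were 3.58 at pH 7.0 and 8.57 at pH 5.5. In hypermethylated DNA it had an input-called peak at pH 7.0 with a fold of 5.64 and a −log10 q of 32.7, and an IgG-called peak at pH 5.5 with a fold of 5.31. In neither condition did the region also overlap a peak against the other control, which is why the rule counted it as lost. Chr3:13256548-13256858 had a CK fold of 8.57 and an IgG-called peak at hypermethylated pH 5.5 with a fold of 4.72. Chr9:15070039-15070348 had a CK fold of 8.19 and an input-called peak in that condition with a fold of 4.07. The widest member region, Chr8:3790257-3791525, spanned 1269 bp with modest folds of 2.69 in CK, 2.42 at pH 7.0 and 3.78 at pH 5.5, and it also had an input-called hypermethylated peak at pH 7.0 with a fold of 2.13.

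At the edge of the rule, the weakest member regions by the score of any of their peaks had a −log10 q of 1.31 in CK. They were Chr2:32350907-32351149, Chr8:7016296-7016563 and Chr9:9276267-9276620, with CK folds of 1.77, 1.84 and 1.84. Just outside were 6317 CK regions that were kept in demethylated DNA and held exactly 1 hypermethylated common peak, of which 2833 had it at pH 7.0 and 3484 at pH 5.5. In 28 of these the hypermethylated −log10 q was below 2. The lowest was 1.31 at Chr7:7945394-7946193 with a fold of 1.56, followed by 1.36 at Chr10:2374443-2374705 and 1.43 at Chr6:1306498-1307087.

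Member regions were spread over all 12 chromosomes. Their share of CK regions ran from 3.26% (2.76% to 3.85%) on chromosome 5 to 4.28% (3.62% to 5.05%) on chromosome 9, and the intervals of these extremes overlapped. Chromosome 5 was the only one with fewer member than mirror regions, 133 against 147. On chromosome 2, with 190 against 136 regions, the intervals of the 2 shares did not overlap. On chromosome 9, with fewer CK regions, the shares of 4.28% and 3.08% were as far apart and the intervals overlapped. Such intervals cover counting error only, and the balance of the 2 sets turned with the peak setting. Single chromosomes are therefore not interpreted. Along the chromosomes, the share lay between 3.40% and 4.18% in 5 bands from the ends to the middle. In windows of 100 kb ordered by the number of CK regions, the member share was 4.23% (3.74% to 4.80%) in the 748 windows with the fewest and 3.17% (2.90% to 3.46%) in the 747 with the most. The mirror share was 2.94% and 2.98% in the same windows.

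**Figure D4:**
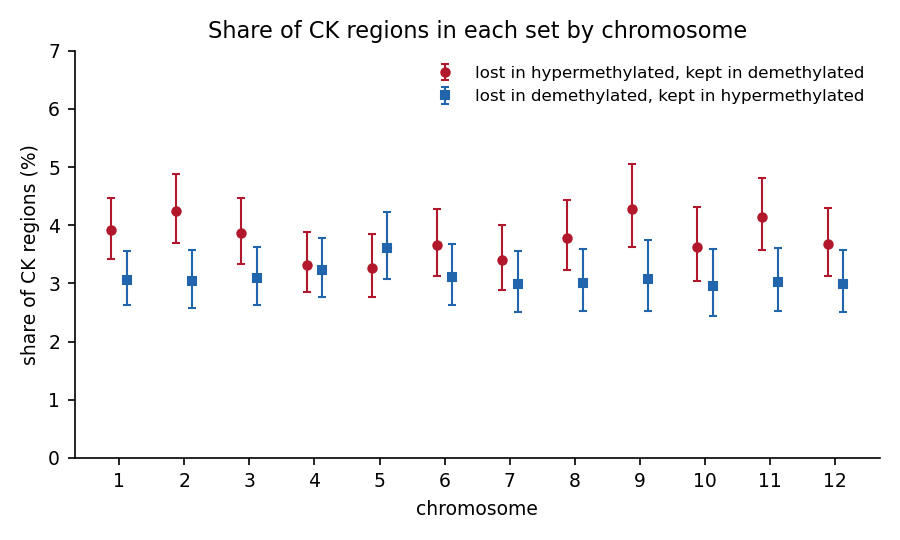
Share of CK regions (%) that were member regions (red circles) or mirror regions (blue squares) on each of the 12 rice chromosomes, with 95% Wilson intervals. Member shares lie between 3.26% and 4.28%, and chromosome 5 is where the mirror share is the higher.

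The spacing of member regions was not set against that of as many regions placed at random, so it is only described. The median distance from a member region to the nearest other one was 68.2 kb, and 12 had another within 1 kb. Of 3739 windows of 100 kb, 1447 held a member region, 1100 of them exactly 1. The window with the most, 5 member regions among 14 CK regions, was Chr11:19000001-19100000. Of these 5, only Chr11:19000261-19000775 was kept at both pH, with folds of 3.62 in CK, 2.37 at pH 7.0 and 3.85 at pH 5.5. Another 3, between 19005908 and 19016585, were kept at pH 7.0 alone with demethylated folds from 1.61 to 3.03. Of these, Chr11:19005908-19006272 had an input-called peak at hypermethylated pH 7.0 with a fold of 3.01. Chr11:19016371-19016585 had one at hypermethylated pH 5.5 with a fold of 3.26. The fifth, Chr11:19084499-19084785, was kept at pH 5.5 alone with a demethylated fold of 8.01 and had a CK fold of 6.41. It also had an IgG-called peak at hypermethylated pH 7.0 with a fold of 4.16, and an input-called one at pH 5.5 with a fold of 4.40.

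Member regions were less close to hypermethylated common peaks than mirror regions were to demethylated ones. The median distance from a member region to the nearest of them was 1432 bp, with 17.3% (15.6% to 19.1%) of the regions within 500 bp and 38.5% within 1 kb. Mirror regions lay at a median of 1129 bp from a demethylated common peak, with 22.5% (20.5% to 24.7%) within 500 bp. Regions found in CK alone had a median of 1259 bp to a hypermethylated peak. The hypermethylated pH 7.0 and pH 5.5 sets held 67787 and 82718 common peaks and the demethylated sets 73109 and 75913. Distances ran to the peaks of both pH together, and taken so the treatments had similar numbers of peaks. The cause of the difference in distance was not tested.

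**Figure D5:**
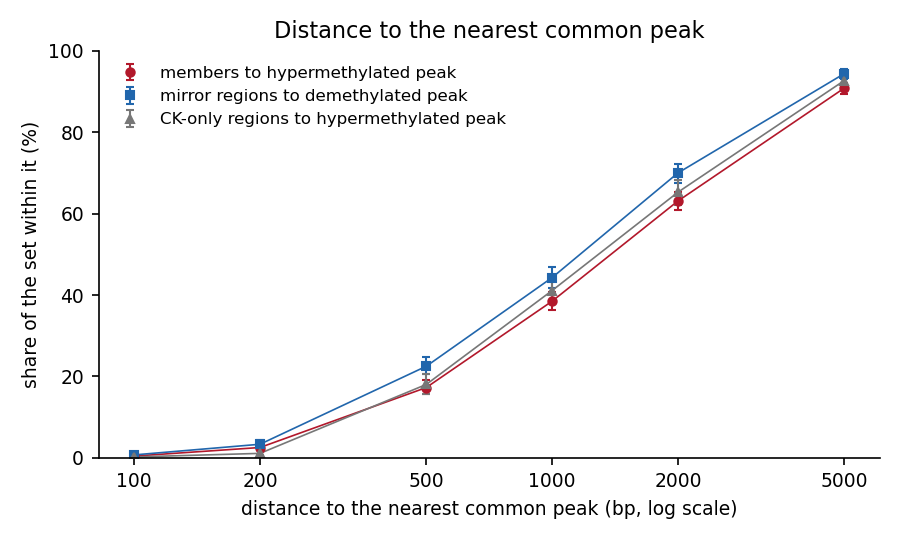
Share of regions (%) whose nearest common peak lay within the distance on the horizontal axis (bp, log scale), for member regions and regions of CK alone to a hypermethylated peak, and for mirror regions to a demethylated peak. Bars are 95% Wilson intervals; within 500 bp the shares were 17.3%, 18.0% and 22.5%.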

How the data were processed

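iM-IP-seq libraries of rice DNA had been aligned by the authors with BWA to MSU v7.0, filtered with SAMtools and Picard, merged by condition and called with MACS2 2.1.1 in paired-end mode at q 0.05. Of the 10 deposited lists, the columns used were position, summit, fold enrichment (a ratio of IP pileup to control), and 2 scores on the −log10 scale, of the p-value and of the q-value. The deposited display score was read and not used. The demethylated pH 7.0 IP labels name a hypermethylated list, so the file called demethylated, which the demethylated input label also names, was taken.

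Overlaps, merging, Wilson intervals and medians were computed in Python 3.11.15 with pandas 2.3.3, numpy 2.4.6 and scipy 1.17.1. Overlaps and merging were tested on simulated data against bedtools 2.31.1. Figures were drawn with matplotlib 3.10.9. A region's value in a condition is its peak with the highest −log10 q. Whole fragments and control level at a summit were solved from fold and p-value, since read depth is unknown, and the peaks tried all had a solution. Fragments are counted before the IP is scaled to the control, whereas the control level is that of the scaled list. No test over samples could be made.

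Member regions, sets and alternatives were chosen with earlier results of these data known. Named regions were, among those without a hypermethylated peak in any list, the 6 (both pH), 3 (pH 7.0 alone) and 3 (pH 5.5 alone) with the highest minimum fold, and, over all member regions, the 3 with the highest CK −log10 q, the widest, and the 100-kb window with the most. Sequence, base composition and genes were not analysed here, because no MSU v7.0 genome or annotation was used.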

Additional observations from a re-analysis of the deposited data

How the results depend on the processing

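The number of member regions (1853) was within 1.5 times under 7 of 11 alternatives. It was 7862 with all IgG-called peaks, 1133 with a fold of at least 4, 1010 when no peak of any hypermethylated list was allowed and 464 when both pH were required. The number of mirror regions (1529) was 931 with all input-called peaks, 5748 with all IgG-called peaks, 544 without a peak in any demethylated list, 481 at both pH and 896 with one smallest width. The log2 ratio of member to mirror regions (0.28) turned to -0.43 with a fold of at least 4 and to -0.052 at both pH. It was 0.99 with all input-called peaks, 0.45 with all IgG-called peaks, 0.40 with a −log10 q of at least 5, 0.40 with the top 20000 peaks, 0.89 without a peak in any list of the other treatment and 0.54 with one smallest width. The median width (305 bp) was 295 and 279 bp with every input-called or every IgG-called peak, 362 bp with a fold of at least 4, 529.5 bp with the top 20000 peaks, 200 and 199 bp when CK peaks were judged alone with an overlap of 50% or 1 bp, 288 bp without a hypermethylated peak in any list, 355.5 bp at both pH and 339 bp with one smallest width. The cause was not tested. The setting of one smallest width, 206 bp in all lists, was chosen after seeing the data. The remaining 18 of 44 values stayed within their limits. No paired analysis was possible because the replicates had been merged before peak calling, and no replicate could be left out. The planned windows of GC, GpC and CpG content and the genic share were not run, since they need a genome and annotation of MSU v7.0. Counting intervals cover neither replicate spread nor differences in coverage and width limits between lists.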
